A study of Mus musculus with 27 samples.

Results

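The 2 Mb of mouse chromosome 5 that precede the topologically associating domain (TAD) of *Nkx3-2* were examined for contacts with enhancers inside that TAD. The region runs from 39050000 to 41049999 in mm10, and the TAD from 41050000 to 41810000. Its members are the *BglII* fragments whose midpoint lies in this interval, chosen by position alone. There are 738 of them, among 51862 fragments on chromosome 5 and 949826 in the whole genome. The TAD borders are those of the paper, which remapped published domains of mouse embryonic stem cells to mm10. They are rounded positions and were not measured in limb or liver.

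The study asked whether candidate limb enhancers in the TAD contact *Nkx3-2*, and used multiplexed 4C-Seq from them, in which crosslinked chromatin is cut, religated and amplified from a chosen position, the viewpoint. Template came from forelimb buds, hindlimb buds and liver of C57BL/6 embryos at E14.5, for which the labels give no treatment or allele, with 5 to 6 embryos pooled per replicate (the labels give the substrain as Ncrl and the protocol as NJ). Each tissue was amplified in 3 replicates from the viewpoints N1, N2 and N3, which gave 27 libraries. The N2 primer lies downstream of the N2 enhancer rather than within it, and all primers point toward *Nkx3-2*, away from the region described here.

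*Nkx3-2* encodes a homeodomain transcriptional repressor that delays cartilage maturation in the developing skeleton. A TAD is a stretch of chromatin whose parts touch each other more often than they touch the neighbouring chromatin. Its borders in mammals often carry sites for CTCF, a zinc-finger protein that halts loop extrusion by cohesin, and enhancers mostly act on promoters within their own TAD.

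Every fragment is bounded by *BglII* sites, and the sequences are shown to mark where a ligation could be read. Capitals mark the *BglII* site in the viewpoints and in the fragment ends. In GRCm38.p6, the mm10 assembly, chromosome 5 holds 51861 such sites, and each coincided with a fragment end of the files. Each viewpoint sequence runs on the plus strand from the first base of the nested primer to the end of the nearest cut site, chr5:41165733-41165760 for N1, chr5:41403985-41404017 for N2 and chr5:41535790-41535815 for N3.
N1 viewpoint: cttgagtttgccacccaaacctAGATCT
N2 viewpoint: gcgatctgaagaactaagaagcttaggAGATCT
N3 viewpoint: gttgtaagtagcagacacagAGATCT

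The fragments of the region with reads in the most libraries are introduced here by their ends and described further on. The N2 fragment is chr5:39111735-39126002 and the N3 fragment chr5:39756817-39759180, and the first 60 bases from the left cut site of each are given on the plus strand.
N2 fragment, left end: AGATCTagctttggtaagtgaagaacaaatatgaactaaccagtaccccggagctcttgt
N3 fragment, left end: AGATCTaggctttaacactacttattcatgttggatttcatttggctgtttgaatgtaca
The third sequence, in lower case throughout, is the whole of a 200-base N1 fragment, chr5:40982888-40983087, which lay 67.0 kb before the TAD and received reads in 3 of 9 libraries.
N1 fragment, whole: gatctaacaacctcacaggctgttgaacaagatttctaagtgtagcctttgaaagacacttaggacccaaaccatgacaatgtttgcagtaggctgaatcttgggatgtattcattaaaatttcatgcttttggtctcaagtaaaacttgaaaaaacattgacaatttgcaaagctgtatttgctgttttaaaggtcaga

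The region is poor in genes. In GENCODE vM21, 15 genes have their 5′ end in it, and only *Hs3st1*, which encodes heparan sulfate glucosamine 3-O-sulfotransferase 1, codes for protein. The others include 5 lincRNAs and 4 processed pseudogenes. From the 5′ end of *Hs3st1* at 39755475 (minus strand) to the start of *Rab28* at 41624976, inside the TAD, no protein-coding gene is annotated, a stretch of 1869.5 kb that takes up most of the region.

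Library depth differed by viewpoint, with 2984 to 20134 reads for N1, 165471 to 570405 for N2 and 924023 to 2376866 for N3. Levels are therefore given as reads, or as RPM, reads scaled to a library total of 1000000. Liver replicate 3 stood apart from the other libraries of every viewpoint. It had reads on 11.8% of the 738 fragments for N1, 21.8% for N2 and 22.5% for N3, while the other 8 libraries of a viewpoint reached at most 2.71, 5.42 and 4.20%. The same library also had reads on the highest share of chromosome 5 fragments, 1.74, 4.55 and 6.86%, against at most 0.595, 2.20 and 3.74% elsewhere, so its wide spread of reads was not limited to this region. Nothing in the labels says whether replicates came from separate litters, and p-values measure only the spread between these libraries. Intervals and floors cover counting error only, because PCR copies one molecule into many reads.

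Contacts from N1 with the region were few. The 3 forelimb libraries held 136, 44 and 50 reads in it, on 11, 13 and 12 fragments. The hindlimb libraries held 9, 64 and 8 reads on 3, 8 and 4 fragments. The liver libraries held 238, 1 and 481 reads on 20, 1 and 87 fragments. Liver thus contained both the lowest and the highest library, and the 3 tissues overlapped. A floor of 3 reads corresponded to 149 to 1005 RPM in the N1 libraries, so most fragments of the region could not have been detected at a low contact rate. The region took between 0.0919% (liver 2, 95% Wilson interval 0.0162 to 0.519) and 12.2% (liver 3, 11.2 to 13.3) of the chromosome 5 reads more than 20 kb from N1.

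From N2, the forelimb libraries held 209, 100 and 55 reads on 17, 17 and 11 fragments. The hindlimb libraries held 16, 11 and 81 reads on 9, 7 and 21 fragments. The liver libraries held 240, 162 and 837 reads on 40, 15 and 161 fragments. In reads, the 2 highest libraries were liver, but the third liver library lay below forelimb 1. In RPM, liver 3 was highest at 3621. Hindlimb 3 followed at 490, above liver 1 at 445 and liver 2 at 386. The share of distant chromosome 5 reads ran from 0.266% (hindlimb 1, 0.164 to 0.431) to 5.50% (liver 3, 5.15 to 5.87).

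From N3, the forelimb libraries held 78, 282 and 206 reads on 18, 23 and 18 fragments. The hindlimb libraries held 199, 23 and 218 reads on 31, 12 and 28 fragments. The liver libraries held 171, 191 and 989 reads on 24, 14 and 166 fragments. Without liver 3, the tissues overlapped in reads and in fragments. The share of distant chromosome 5 reads lay between 0.0459% (hindlimb 2, 0.0306 to 0.0689) and 0.657% (liver 3, 0.617 to 0.699).

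**Figure D1:**
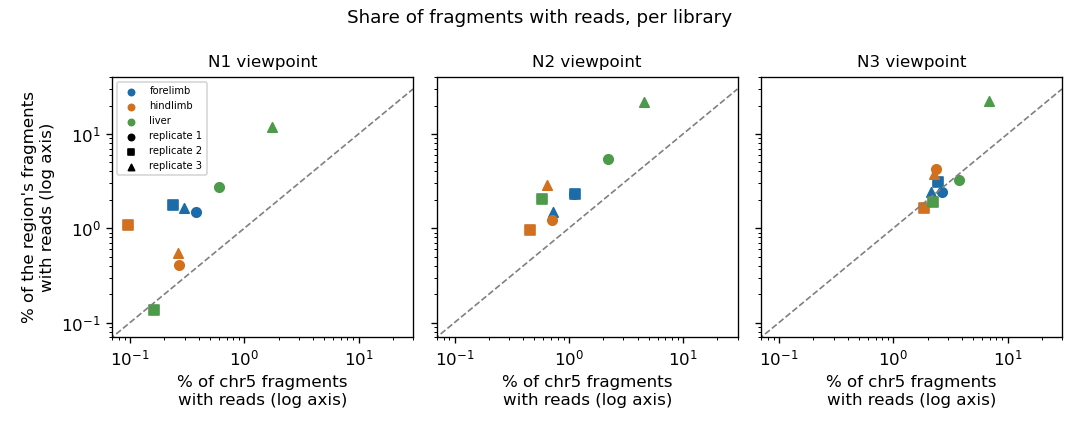
Share of the 738 fragments with reads (y axis, %, log scale) against the share of all chromosome 5 fragments with reads (x axis, %, log scale), 1 point per library, with a panel per viewpoint and a dashed line where both are equal. Liver replicate 3 is the uppermost and rightmost point of each panel, at 11.8, 21.8 and 22.5% of the region.

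The reads were scattered over fragments that seldom recurred. Of the 738 fragments, 366 had no read in any of the 27 libraries. From N1, 615 fragments had no reads, 95 had reads in 1 library, 20 in 2 and 8 in 3, and none in more. No fragment had reads in 2 forelimb libraries or in 2 hindlimb libraries from N1, and 12 did in liver. From N2, 214 fragments had reads in some library, but 58 in 2 or more and 13 in 3 or more. From N3 the corresponding numbers were 228, 72 and 19. Liver 3 alone accounted for 65 of the 123 N1 fragments with reads, 112 of the 214 N2 fragments and 105 of the 228 N3 fragments. Fragments with reads in any library were longer, with a median of 2312 bases against 1182.5 for those without, and had less soft-masked repeat sequence, 25.2% against 44.1% in the median. The median GC content was 38.6 and 38.5%. Many fragments with reads had a direct neighbour of equal count (median over libraries 100% from N1, 82.4% from N2 and 51.6% from N3), so neighbouring fragments are not independent contacts.

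Libraries of different viewpoints made from the same tissue and replicate shared fragments mainly in liver 3. Over all 9 such pairs, N2 and N3 shared 68 fragments, 22.8% of those seen from N2 and 20.4% of those seen from N3, against 6.00 and 5.35% in the 72 pairs of different tissue or replicate. Without liver 3 they shared 3 (2.19 and 1.79%), no higher than the 2.50 and 2.04% of the pairs of different tissue or replicate. N1 and N3 shared 45 (28.3 and 13.5%) with liver 3 and 4 (5.56 and 2.38%) without it, against 5.36 and 2.30% in the different pairs without it. N1 and N2 shared 49 (30.8 and 16.4%) with liver 3 and 12 (16.7 and 8.76%) without it, against 9.33 and 4.90% in the different pairs without it. These differences were not tested. Liver 3 had reads on 87 fragments from N1, 161 from N2 and 166 from N3. The sharing that such breadth gives by itself was not worked out.

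Contact fell across the TAD start from N1 in every library. Reads in the 100 kb inside the TAD (more than 20 kb from the primer) numbered 253, 72 and 448 in forelimb, 473, 207 and 160 in hindlimb and 262, 183 and 393 in liver. In the 100 kb before the TAD start, from 40950000 to 41049999, they numbered 27, 28 and 0 in forelimb, 9, 0 and 0 in hindlimb and 50, 1 and 125 in liver. The mean log2 ratio of inside to outside, with 0.5 reads added to each, was 5.33 ± 3.27 (SD, n = 9). Across the other 19 borders between 100-kb steps of the region, the mean ran from −1.87 to 1.90 in the same direction, and at most 5 of 9 libraries were higher on the nearer side. The TAD start also lies nearest the viewpoint of these 20 borders, 116 kb away, so the bare step includes the decay of contact with distance.

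From N2, the inner step held more reads in 7 of 9 libraries, with a mean log2 ratio of 1.95 ± 3.30 (SD, n = 9). The inner 100 kb held 121, 81 and 47 reads in forelimb, 40, 0 and 10 in hindlimb and 256, 13 and 223 in liver. The outer 100 kb held 2, 12 and 1 in forelimb, 0, 2 and 8 in hindlimb and 60, 91 and 144 in liver. The 2 exceptions were hindlimb 2, with 0 reads inside and 2 outside, and liver 2, with 13 inside and 91 outside. Among all 20 borders this was the second highest mean.

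From N3, all 9 libraries held more reads inside, and the mean log2 ratio was 3.06 ± 2.70 (SD, n = 9). The inner 100 kb held 55, 88 and 128 reads in forelimb, 42, 4 and 26 in hindlimb and 22, 31 and 135 in liver. The outer 100 kb held 4, 70 and 0 in forelimb, 2, 0 and 23 in hindlimb and 14, 0 and 45 in liver. This was again the second highest of 20 borders. The highest, 4.03 ± 3.43 (SD, n = 9), lay at 39750000, within *Hs3st1* near its 5′ end, where 8 of 9 libraries were higher on the nearer side.

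**Figure D2:**
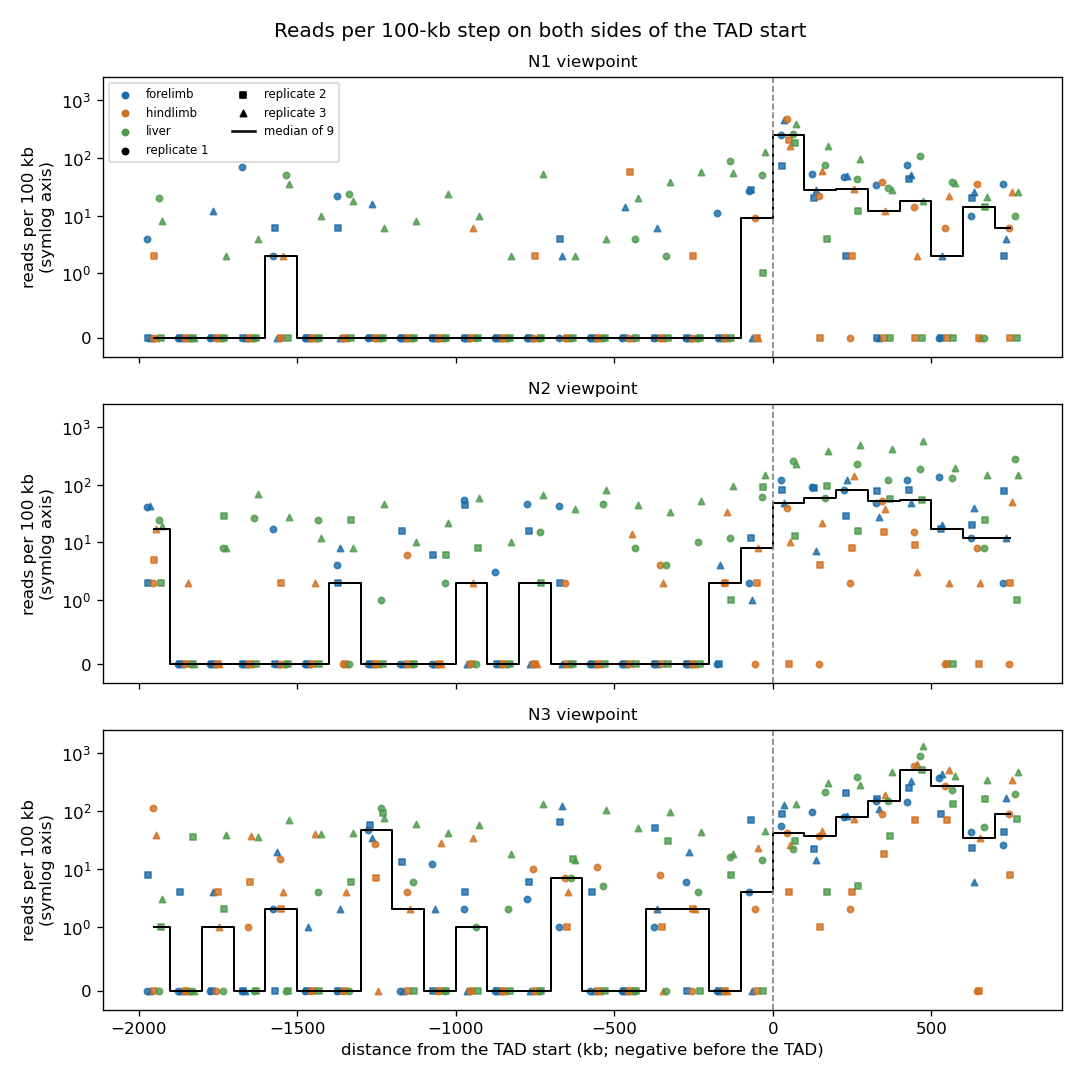
Reads per 100 kb (y axis, linear below 1 and log above) against distance from the TAD start (x axis, kb), with a panel per viewpoint, a point per library and the median of 9 libraries as a black line. The median drops from 253 reads to 9 across the TAD start for N1. Most steps before the TAD have a median of 0 for N1 and N2, while for N3 many lie above 0.

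To take account of distance, the step was divided by the step at the same distances on the other side of the viewpoint. Steps were taken in reads per kb. These mirrored steps match distance but not position relative to the TAD. Both lie inside the TAD for N1 and beyond it for N3, and the outer step of N2 holds *Nkx3-2* and the TAD end. The part of this in the ratios was not tested. Where a step held 0 reads, the ratio rests on the 0.5 reads added. From N1 the mirrored 100-kb steps held 82, 22 and 31 reads (inner) and 20, 0 and 45 (outer) in forelimb, and the log2 ratios of the steps were 1.31, −4.03 and 10.5. In hindlimb the ratios were 0.27, 11.1 and 7.05, and in liver 1.80, 7.74 and 0.51. The mean of 4.03 ± 5.23 (SD, n = 9, 8 of 9 above 0) did not pass the threshold (p = 0.0664 in an exact permutation test that flips signs, two-sided, with a smallest possible p of 0.00391, and 0.105 adjusted over the 3 viewpoints). Forelimb 2 alone was below 0. Without it the mean was 5.03, and with any other library left out the exact permutation test gave an adjusted p of 0.105 to 0.133.

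From N2 the log2 ratios were 3.39, 4.73 and 3.40 in forelimb, 2.36, 0.11 and 4.75 in hindlimb and 7.21, −6.68 and 0.79 in liver. The mirrored inner step held 12, 20 and 40 reads in forelimb, 8, 0 and 2 in hindlimb and 8, 24 and 139 in liver. The mirrored outer step held 2, 77 and 12, then 0, 2 and 50, then 274, 1 and 144. Hindlimb 2 had 0 reads inside and 2 outside on both sides, so its value of 0.11 comes from fragment lengths alone. The mean was 2.23 ± 3.97 (SD, n = 9, 8 of 9 above 0), which the same exact permutation test did not call (p = 0.129, adjusted p = 0.129). Liver 2 alone was below 0. Without it the mean was 3.34, and with any other library left out the exact permutation test gave an adjusted p of 0.133 to 0.258. With each fragment counted once instead of by its reads, it was 1.22 ± 0.79 (SD, n = 9; exact permutation test, adjusted p = 0.0117).

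From N3 the log2 ratios were 5.97, 2.99 and 4.69 in forelimb, 9.87, 5.35 and −7.83 in hindlimb and 3.59, 4.25 and 1.43 in liver. The mirrored inner step held 6, 0 and 4 reads in forelimb, 0, 0 and 116 in hindlimb and 2, 1 and 174 in liver. The mirrored outer step held 36, 3 and 0, then 30, 2 and 0, then 21, 0 and 174. The mean was 3.37 ± 4.81 (SD, n = 9, 8 of 9 above 0; exact permutation test, p = 0.0703, adjusted p = 0.105). Hindlimb 3 alone was below 0. Without it the mean was 4.77, and the exact permutation test gave an adjusted p of 0.129 to 0.141 with any other library left out. For each viewpoint 8 of 9 libraries lay above 0 and the step was not called. For N2 these 8 include hindlimb 2, whose reads showed no step relative to the mirrored step. Leaving out the only library below 0 gives an adjusted p of 0.0234 for each viewpoint in the exact permutation test, the smallest that 8 libraries of one sign allow, so that value carries no further support.

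The whole region was then compared with its mirror image, the same distances on the other side of each viewpoint. The mirror image of N1 (41281467 to 43281466) begins inside the TAD, that of N2 (41757971 to 43757970) includes its last part with *Nkx3-2*, and that of N3 (42021581 to 44021580) lies wholly beyond it. For N1 the mirror image held 194, 154 and 127 reads in forelimb, 162, 3 and 98 in hindlimb and 270, 50 and 381 in liver. The log2 ratio of region to mirror image averaged −1.33 ± 2.79 (SD, n = 9, 7 of 9 below 0; exact permutation test, p = 0.176, adjusted p = 0.264). Hindlimb 2, with 64 reads in the region and 3 in the mirror image, stood at 4.20. Without it the mean was −2.02 (exact permutation test, adjusted p = 0.0352), and with any other library left out the adjusted p was 0.246 to 0.527.

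The nearest part of the region for N1, from 40521466 to the TAD start, mirrors the stretch of the TAD from 41281467 to its end. It held 38, 28 and 20 reads in forelimb, 9, 60 and 0 in hindlimb and 144, 1 and 299 in liver. The matching stretch inside the TAD held 172, 66 and 123, then 100, 2 and 86, then 230, 24 and 198. The reads were fewer before the TAD in 7 of 9 libraries, with a mean log2 ratio of −1.81 ± 3.32 (SD, n = 9; exact permutation test, p = 0.137). Counted once per fragment, the mean was −1.64 ± 1.78 (SD, n = 9; exact permutation test, p = 0.0195), and without hindlimb 2 it was −2.62 (exact permutation test, p = 0.0156, against 0.125 to 0.273 with any other library left out).

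For N2 the mirror image held 125, 85 and 26 reads in forelimb, 27, 8 and 102 in hindlimb and 575, 39 and 989 in liver. The mean log2 ratio was 0.22 ± 1.00 (SD, n = 9, 5 of 9 above 0; exact permutation test, p = 0.547, adjusted p = 0.547).

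For N3 the mirror image held 1006, 688 and 227 reads in forelimb, 887, 254 and 427 in hindlimb and 658, 614 and 1666 in liver. The region held fewer in all 9 libraries, with a mean log2 ratio of −1.78 ± 1.18 (SD, n = 9; exact permutation test, p = 0.00391, the smallest possible, adjusted p = 0.0117). The fullest fragment of the mirror image in every library lay within *Cc2d2a*, chr5:43713505-43720360, and held 165 to 609 reads (median 279) in each of the 9 libraries. Its best match to the N3 nested primer was 16 of 24 bases, which 144 of 675 fragments of the mirror image reached. When fragments with reads in 6 or more N3 libraries were left out, 3 in the region and 9 in the mirror image, the mean was −0.43 ± 1.79 (SD, n = 9; exact permutation test, adjusted p = 0.738). This setting was chosen after seeing the data. Counted once per fragment, the mean was −0.48 ± 0.45 (SD, n = 9; exact permutation test, adjusted p = 0.0586). With the 6 limb libraries alone it was −1.94 ± 1.41 (SD, n = 6; exact permutation test, p = 0.03125, adjusted p = 0.0938). That p is the smallest possible with 6 libraries. Adjusted with the N1 and N2 values of the same setting, it could not pass the threshold.

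**Figure D3:**
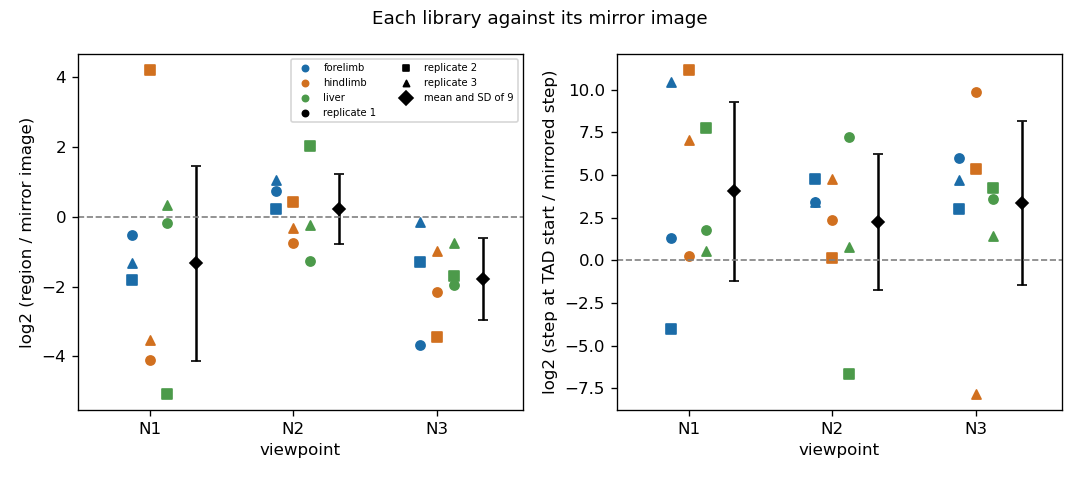
Left, log2 ratio of reads in the region to reads in its mirror image. Right, log2 ratio of the step at the TAD start to the mirrored step. Each point is 1 library and diamonds with bars are the mean and SD of 9 libraries. All 9 N3 points on the left lie below 0, and in each column on the right 8 of 9 points lie above 0.

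The viewpoints were compared at a matched distance, 500 to 1500 kb before each, as a share of the chromosome 5 reads more than 20 kb away. This band took 0 to 9.12% (median 1.08) in the N1 libraries, 0 to 2.96% (median 0.492) in the N2 libraries and 0.00799 to 0.384% (median 0.0525) in the N3 libraries. In log2, N1 exceeded N3 by 2.91 ± 3.11 (SD, n = 9 pairs of the same tissue and replicate number; exact permutation test, p = 0.0156, adjusted over 3 pairs of viewpoints 0.0234). N2 exceeded N3 by 2.39 ± 2.15 (SD, n = 9; exact permutation test, p = 0.0117, adjusted p = 0.0234). N1 and N2 differed by 0.51 ± 4.27 (SD, n = 9; exact permutation test, p = 0.738). The band held 0 reads in N1 forelimb 1, hindlimb 1 and liver 2 and in N2 hindlimb 2. Their values rest on the 0.5 reads added and on library depth. In log2 of the percent, N1 forelimb 1 stood at −5.37, above N3 forelimb 1 at −5.93 with 16 reads. N2 hindlimb 2 stood at −5.64, above N3 hindlimb 2 at −6.80 with 4 reads. The part of the added reads in the differences was not tested. These differences did not hold against another denominator, chosen after seeing the data: as a share of reads 20 kb to 3 Mb from the viewpoint, N1 minus N3 was −0.30 ± 2.72 (SD, n = 9; exact permutation test, adjusted p = 0.742) and N2 minus N3 was 1.16 ± 1.94 (SD, n = 9; exact permutation test, adjusted p = 0.281).

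Limb and liver were compared in the region as log2 RPM. From N2, limb was lower than liver by 2.49 (limb minus liver −2.49 ± 1.23 SE, 6 and 3 libraries), which did not pass (exact permutation test over 84 arrangements, two-sided, p = 0.0952, adjusted p = 0.286). Without liver 3 the difference was −1.45. From N1 the difference was −0.11 ± 2.56 (SE; exact permutation test, adjusted p = 0.964) and from N3 −0.72 ± 0.88 (SE; exact permutation test, adjusted p = 0.625). Forelimb minus hindlimb gave 0.64 ± 1.49 (N1), 1.45 ± 1.25 (N2) and 0.52 ± 1.02 (N3) (SE; exact permutation test, adjusted p = 0.7 for each). With 3 libraries against 3 the smallest possible p is 0.1, so this last comparison could not reach the threshold.

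Counts in 100-kb windows were also tested across chromosome 5 with edgeR's quasi-likelihood test. Limb against liver called 0 of 15 N1 windows (0%), 0 of 80 N2 windows (0%) and 0 of 491 N3 windows (0%) at an adjusted p under 0.05. Unadjusted, 3, 8 and 44 lay under 0.05, and DESeq2 called 0, 4 and 7. Forelimb against hindlimb called 0 of 15, 0 of 80 and 0 of 491 (0% each), with 0, 7 and 44 unadjusted and 0, 0 and 17 by DESeq2. Of these windows 3, 4 and 7 belonged to the region. In simulated data with the dispersion of the real windows, the limb against liver test recovered 0, 11.8 and 5.56% of 8-fold changes for N1, N2 and N3. A count of 0 called therefore does not show that the tissues are alike.

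The window of the region with the smallest p was the last 100 kb before the TAD start seen from N2. Its reads were 0 to 12 in the 6 limb libraries and 60, 91 and 144 in liver. Because the window was picked by its p, this separation carries no support of its own. How many other windows separate in this way is not given here. The 100 kb just inside the TAD held 0 to 121 reads in limb and 13 to 256 in liver. In edgeR the log2 fold change of limb over liver was −3.94 (adjusted p = 0.193). DESeq2 called it, at −4.37 (adjusted p = 0.0141), as did edgeR without hindlimb 3, at −5.31 (adjusted p = 0.0248). With any other library left out, edgeR called 0 windows of the region from N2. It also called 0 of them without TMM scaling, with a replicate block or with every window that held a read. Windows of 200 kb called another part of the region and not this one. From N1 the same window held 0 to 28 reads in limb and 50, 1 and 125 in liver, and from N3 0 to 70 in limb and 14, 0 and 45 in liver, so the groups overlapped there (edgeR adjusted p = 0.399 and 0.999).

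By mean RPM, the highest 100-kb window of the region differed between viewpoints. For N2 it was this last window, 116 ± 203 RPM (SD, n = 9), with reads in 8 of 9 libraries. Liver 3 held 623 RPM of it, and without that library the mean was 52.1 ± 76.3 RPM (SD, n = 8), beside 51.1 RPM in the next window. For N1 it was 40550000 to 40649999, 2444 ± 6393 RPM (SD, n = 9), with reads in 4 libraries and 58 of them in hindlimb 2, the shallowest. For N3 it was 39750000 to 39849999, 27.5 ± 18.0 RPM (SD, n = 9), with reads in 8 libraries. Without its highest library the N1 window was at 320.2 RPM and the N3 window at 23.9 RPM, the latter a smaller change than for N1 and N2.

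The 5′ end of *Hs3st1* lies in this N3 window. Within 25 kb of the 5′ end that GENCODE gives, on 13 fragments, N3 libraries held 47, 55 and 18 reads in forelimb, 12, 5 and 2 in hindlimb and 112, 93 and 24 in liver. Every N3 library had reads there. From N1 no library had any, and a count of 0 allows up to 3 reads in each, and from N2 3 of 9 libraries had up to 12. RefSeq places the 5′ end of the gene at 39644631, and within 25 kb of that position only 2 of 9 libraries had reads for each viewpoint.

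The fragment that carried most of these reads was chr5:39756817-39759180, 2364 bases long, 1292 kb before the TAD and 2.52 kb (from its midpoint) upstream of the GENCODE 5′ end. Its reads were 47, 55 and 18 in forelimb, 10, 5 and 0 in hindlimb and 59, 2 and 21 in liver, or 8 of 9 N3 libraries. The same fragment had reads in 1 N2 library (5) and in no N1 library. The fragment before it had reads in 0 and the fragment after it in 2 of the N3 libraries. It also held the longest likeness to the N3 nested primer among 697 fragments of the region long enough to measure, 19 of 24 bases without gaps, at chr5:39758434-39758457 on the minus strand, shown with the matching bases in capitals.
N3 fragment, primer likeness: ccTtTAAGTAGgAGACACAaAGAT
No other fragment matched as many bases. Its longest exact match to the 3′ end of the primer was 8 bases, which 115 of the fragments reached. The part of this likeness in the reads was not tested.

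The next N3 fragments were chr5:40375724-40377609 and chr5:40742051-40747124, each with reads in 6 of 9 libraries. The former held 0, 58 and 0 reads in forelimb, 0, 1 and 2 in hindlimb and 6, 15 and 1 in liver. The latter held 1, 51 and 0 in forelimb, 1, 1 and 0 in hindlimb and 0, 1 and 1 in liver. Forelimb 2 carried most of the reads of both. They matched the N3 primer at 17 and 18 of 24 bases, which 23 and 5 of the 697 fragments reached, and the former contained the last 12 bases of the primer, which 3 fragments did.

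From N2, chr5:39111735-39126002 was the only fragment of the region with reads in all 9 libraries, although it lies 1931 kb before the TAD and 2285 kb from the viewpoint. It held 39, 2 and 16 reads in forelimb, 2, 5 and 1 in hindlimb and 2, 2 and 3 in liver. N3 gave no reads on it and N1 gave 2, in 1 library. At 14268 bases it was among the longer fragments, no annotated gene overlapped it, and its best match to the N2 primer was 18 of 26 bases, which 14 of 697 fragments reached. The part of length and of likeness to the primer in its reads was not tested. The neighbours chr5:40259995-40261648 and chr5:40261649-40262418 followed, each with reads in 5 libraries and 23 reads in forelimb 1. Their best matches to the N2 primer, 15 and 14 of 26 bases, were common, reached by 496 and 622 of the 697 fragments.

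No N1 fragment had reads in more than 3 of 9 libraries. The 200-base fragment shown above held 13 reads in forelimb 2, 3 in liver 1 and 13 in liver 3. The neighbours chr5:41023892-41032106 and chr5:41032107-41036729, 22.0 and 15.6 kb before the TAD start, each held 1, 20 and 9 reads in the same 3 libraries. The 3 fragments had no reads in hindlimb from N1. Fragments next to the TAD start were thus among the most often seen from N1, but in a minority of libraries. The best matches of the 3 fragments to the N1 primer were 11, 13 and 15 of 20 bases. Of 697 fragments, 653, 347 and 7 reached these.

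**Figure D4:**
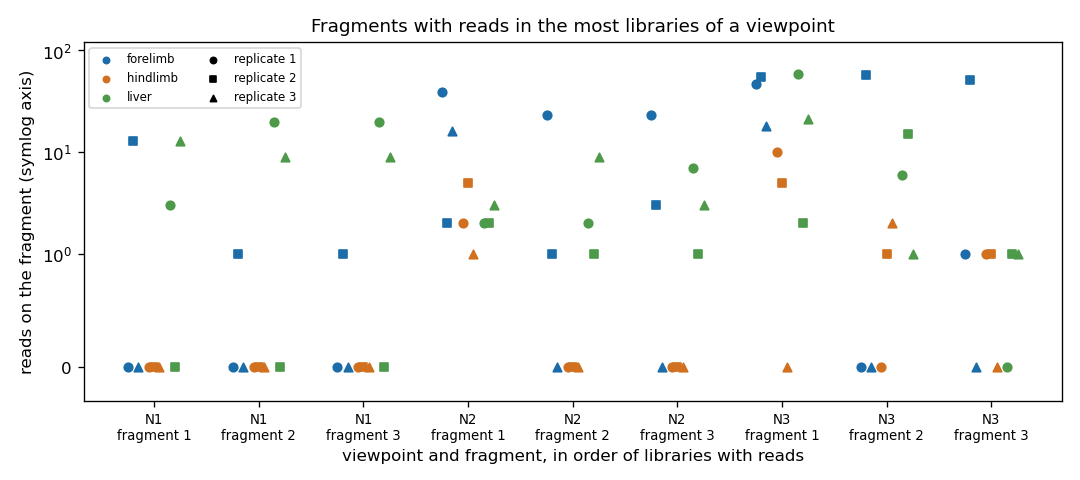
Reads per library (y axis, linear below 1 and log above) on the 3 fragments of the region with reads in the most libraries of each viewpoint, 1 point per library. N2 fragment 1 has reads in 9 of 9 libraries and N3 fragment 1 in 8, while no N1 fragment exceeds 3.

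The fragment that spans the TAD start, chr5:41039359-41050948, is the last of the region. It had reads in 3 N1 libraries (16 in forelimb 1, 4 in liver 1 and 5 in liver 3), in 3 N2 libraries (1 in forelimb 3, 34 in liver 1 and 8 in liver 3) and in 2 N3 libraries with 1 read each. The next fragment, chr5:41050949-41052225, just inside the TAD by its midpoint, had reads in 3 N1, 5 N2 and 5 N3 libraries. The CTCF core consensus, searched on both strands, matched 8 times in the region, in 6 of its 20 windows of 100 kb, and 39.9% of the 100-kb windows of chromosome 5 held a match. Of the 8 matches 4 were on each strand. The closest to the TAD start lay 5.31 kb before it in that last fragment (chr5:41044681-41044708 with flanks, minus strand) and 2.13 kb inside it (chr5:41052123-41052150 with flanks, plus strand). Both are shown in their own 5′ to 3′ direction with the match in capitals, since they flank the position across which contact was measured.
CTCF match before the TAD start: acacaggaCCACCAGGTGGCaccattga
CTCF match inside the TAD: aaaatcgaCCAGCAGAGGGCagaacatc
A match describes the letters of this genome and not binding, which was not measured here. The distances of the matches are to the rounded TAD start, which comes from embryonic stem cells and was not mapped in these tissues.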

How the data were processed

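The 4C-Seq libraries were deposited as counts of reads per *BglII* fragment, one file per library. Per the labels and methods, the authors used cutadapt 1.10 for trimming and BWA 0.7.10-r789 for mapping to mm10, and then removed blacklisted regions and low-quality alignments, and binned the rest without pooling replicates. The deposited count was used as it stands. The further deposited columns, fragment length and count per length, were not used as measurements. Groups came from the sample titles, since the replicate number of the third hindlimb replicate and the enhancer named for the N3 liver libraries differ in other label fields.

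Fragments were assigned by midpoint, and those within 20 kb of the primer were left out. Reads were compared after adding 0.5, with exact sign-flip or label permutation tests (two-sided, Benjamini-Hochberg adjustment, threshold 0.05) in Python 3.11.15 (numpy 2.4.6, scipy 1.17.1, pandas 2.3.3). Windows of 100 kb were tested with edgeR 4.0.16 (filterByExpr, TMM, all 3 tissues in the fit) and DESeq2 1.42.0 in R 4.3.3. The window test was tested on simulated data for limb against liver. With a dispersion of 0.1 it recovered 100% of 5 windows changed 8-fold for N1, 97.2% of 36 for N2 and 100% of 117 for N3, with 1, 4 and 7 false calls. At the dispersion of the real windows, 2.35, 1.78 and 2.18, it recovered 0, 11.8 and 5.56%. Annotation was GENCODE vM21, and sequence GRCm38.p6 from RefSeq.

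The members, lists and tests were chosen with earlier results of these data known. The text names the protein-coding gene of the region, the 3 fragments per viewpoint with reads in the most libraries (ties by mean RPM), the window with the highest mean RPM per viewpoint and windows past the threshold. The *Cc2d2a* fragment, the fragment at the TAD start and the window with the smallest p were named after their values were seen. Alternatives were fragments counted once, neighbouring fragments of equal count taken once, other denominators, window sizes, tools and filters, limb libraries alone, a replicate block and each library left out.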

Additional observations from a re-analysis of the deposited data

Results flagged for a closer look

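Of 24 groups of values examined for a single distant library, 4 held one. Chance gives about 1 in 20 for independent groups of normal values. These groups overlap, since the 6 limb libraries were also examined among the 9, and all flags but 1 are liver replicate 3. Liver replicate 3 had reads on far more fragments of the region than the other 8 libraries of its viewpoint, 87 for N1 (next highest 20), 161 for N2 (next highest 40) and 166 for N3 (next highest 31). The gap to the next library was 0.779, 0.786 and 0.877 of the whole range. N3 hindlimb 3 stood apart in the step at the TAD start relative to the mirrored step, at −7.83 on the log2 scale while the other 8 lay between 1.43 and 9.87. It had 26 reads inside and 23 outside the TAD start, and 116 and 0 on the mirrored side.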

How the results depend on the processing

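Over 22 results, 258 of 305 alternative values kept direction and side of the threshold. The cause of the others was not tested. Taking neighbouring fragments of equal count once changed no direction or call. Counting each fragment once turned forelimb minus hindlimb to −0.029 for N1, −0.23 for N2 and −0.36 for N3, raised the N1 comparison within the TAD span (−1.64) and the N2 step (1.22) past the threshold, and took the N3 mirror comparison (−0.48) and the matched-distance differences N1 minus N3 (0.87) and N2 minus N3 (0.63) below it. As a share of distant chromosome 5 reads, limb minus liver from N1 was 0.13. As RPM, N2 minus N3 was 0.88, not called. With the reads from 20 kb to 3 Mb as denominator (chosen after seeing the data), N1 minus N2 was −1.46, N1 minus N3 −0.30 and N2 minus N3 1.16, none called. With limb libraries only the N3 mirror comparison was −1.94, at the smallest p that 6 libraries allow, which could not pass once adjusted. With the 6 limb pairs (chosen after seeing the data) N1 minus N3 was 3.09 and N2 minus N3 2.03, no longer called. Leaving out recurrent fragments took the N3 mirror comparison to −0.43.

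With the replicate block, or the mean per replicate number, the N3 mirror comparison (−1.78) and the matched-distance differences of 2.91 and 2.39 kept their size but 3 blocks cannot go below p = 0.25 in an exact permutation test, and the block changed no other call, with 0 windows called in each edgeR test. Deviations of same-numbered libraries correlated at −0.28 to 0.56 for N1, −0.03 to 0.30 for N2 and −0.02 to 0.12 for N3. The means were 0.119, 0.0997 and 0.0369, and those of other pairs −0.0591, −0.0496 and −0.0185. Deviations from a mean over 3 replicates sum to 0. The values of other pairs therefore largely follow from those of same-numbered pairs and give no separate comparison. Whether same-numbered libraries share embryos was not tested. The numbers were not taken to pair the tissues, and the main mirror and step tests treat the libraries of a viewpoint as independent.

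Leaving out each library in turn gave −2.02 to −0.86 (N1), −0.012 to 0.40 (N2) and −1.99 to −1.54 (N3) for the mirror comparison, −2.62 to −1.11 for the N1 comparison within the TAD span, and 3.14 to 5.03, 1.61 to 3.34 and 2.56 to 4.77 for the steps. The matched-distance differences ran from −0.53 to 1.30 (N1 minus N2), 2.02 to 3.30 (N1 minus N3) and 1.90 to 2.91 (N2 minus N3). Limb minus liver ran from −2.54 to 1.47, −3.07 to −1.45 and −1.11 to 0.023, and forelimb minus hindlimb from −0.14 to 2.10, 0.73 to 2.66 and −0.27 to 1.16 for N1, N2 and N3. Without N1 liver 3, limb minus liver was 1.47, and without N3 liver 3 it was 0.023. Called windows for limb against liver ran from 0 to 1 (N1), 0 to 6 (N2) and 0 to 1 (N3), and for forelimb against hindlimb from 0 to 0, 0 to 1 and 0 to 1. DESeq2 called 4 (N2) and 7 (N3) for limb against liver and 17 (N3) for forelimb against hindlimb. Windows of 200 kb called 3 for N2, limb against liver, 1 of them in the region (39250000 to 39449999). Depth limits the N1 libraries most, where 3 reads equal 149 to 1005 RPM.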
